A study of Mus musculus with 19 samples.

Results

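Cytosolic ribosomal protein genes were followed in the left ventricle of mice with a banded aorta. The genes were taken by symbol: Rpl or Rps followed by a digit, without the Rps6k kinases and without pseudogenes, from probe sets that the platform annotation ties to exactly 1 symbol. This gave 47 symbols, of which 43 had a probe set with a log2 signal above 4 in at least 5 of the 19 arrays, out of 10733 genes that passed this filter. Of the 43 genes, 22 carry an Rpl symbol and 21 an Rps symbol. Of these, 37 encode core proteins of the ribosome (19 of the large subunit and 18 of the small), 5 encode paralogs of core proteins (Rpl3l, Rpl22l1, Rps27l, Rps4l and Rpl7l1), and Rps19bp1 encodes a protein that binds Rps19 and is not part of the ribosome. The remaining 4 symbols stayed under the filter: Rpl12 was above 4 on 4 arrays (2.57 to 4.38), and Rps27 (2.76 to 3.18), Rpl39l (2.37 to 3.66) and Rps16 (2.19 on all arrays) were above it on none. The member nearest the filter from inside was Rpl39, with a mean of 4.38. The symbol rule does not cover the whole ribosome, because 30 ribosomal symbols, among them Rpl3, Rpl32, Rpl36a and Rpl36al, lie only on probe sets that list several symbols; these genes are given no value here.

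Each cytosolic ribosome contains 1 copy of nearly all core proteins, which join ribosomal RNA in the nucleolus and leave the nucleus as a large and a small subunit. The messenger RNAs of ribosomal proteins typically begin with a stretch of pyrimidines, the 5′ terminal oligopyrimidine (TOP) sequence, through which mTOR signalling sets their translation, so that protein output can change with no change in the amount of messenger RNA. Heart muscle also makes Rpl3l, a paralog of Rpl3 found in heart and skeletal muscle, which can take the place of Rpl3 in the large subunit. Growth of the heart under load needs more protein synthesis, which makes the amount of ribosome and its composition a matter of interest in hypertrophy.

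The animals were male C57BL/6 mice with no genetic change named in the labels, operated at 7 weeks of age and killed 4 weeks later. Sham-operated mice (n = 5) had no banding; in the other groups the aorta was banded, which raises the pressure load on the left ventricle, and mice were labelled as having no heart failure (n = 7) or heart failure (n = 7). The labels give an outcome for each mouse but no criterion for heart failure. They also give weights relative to tibia length. Left ventricular weight was 4.82 to 5.47 (sham), 6.42 to 7.59 (no heart failure) and 8.09 to 9.75 (heart failure). Lung weight was 8.2 to 9.38, 8.52 to 10.83 and 17.92 to 24.62 in the same order. The banded groups overlap in neither, so heart failure and a heavier ventricle cannot be told apart between them. RNA of the whole left ventricle of each mouse was hybridised to 1 Affymetrix array, and all values below are log2 signals, in which a difference of 1 is a 2-fold change. In a mixed tissue, fewer cells of a type and less RNA per cell cannot be told apart.

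The tissue matched its label, with all 15 cardiomyocyte markers measured and their log2 mean between 14.92 and 15.10 on every array. Fibroblast markers rose in 8 of 12 genes in banded mice without heart failure (66.7%, against 10.8% of all genes tested) and in 10 of 12 with it (83.3%, against 20.4%). The level over the list was 10.69 to 11.54 after sham operation, 11.30 to 12.01 in banded mice without and 11.99 to 12.41 in those with heart failure. The arrays also differed in quality controls. An 18S ribosomal RNA control was high (9.03 to 11.76) in sham mice 1 to 3 and banded mice 5 to 7 without heart failure, and low (5.14 to 7.62) in the other 2 sham mice, the other 4 mice without heart failure and all 7 with heart failure. An actin control read at both ends of its message gave a 3′ minus 5′ difference of 0.943 to 1.02 after sham operation, against 0.672 to 0.898 (no heart failure) and 0.661 to 0.905 (heart failure) after banding, so this control and banding cannot be told apart. Results that move with either control are given with these values, and the part of the controls in them was not tested further.

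Sequences at annotated gene starts show what the members share beyond their names. RefSeq promoter entries of GRCm38.p6 (250 bases before to 50 after the start) were found for 41 of the 47 symbols; Rpl7, Rpl8, Rps4l, Rps14, Rps20 and Rps29 had none. A pyrimidine run, defined as a C followed by at least 6 bases that are each C or T, lay within 15 bases of an annotated start on the sense strand in 17 of 32 core members with an entry (53.1%), in 11 of 67 mitochondrial ribosomal protein genes (16.4%) and in 18.2% of the 8722 genes with an entry among all those tested. The following windows of 30 bases, with the start at base 16 and the longest run of C and T in capitals, were chosen after the values were seen, to set members with such a run beside the members whose signals changed.
Rpl35 (chr2:39005117-39005146, minus strand): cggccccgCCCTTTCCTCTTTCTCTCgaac
Rpl13a (chr7:45128731-45128760, minus strand): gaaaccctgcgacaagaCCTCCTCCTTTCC
Rps18 (chr17:33955651-33955680, minus strand): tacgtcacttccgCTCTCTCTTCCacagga
Rpl38 (chr11:114668565-114668594, plus strand): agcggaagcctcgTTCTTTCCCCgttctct
Rps6 (chr4:86857353-86857382, minus strand): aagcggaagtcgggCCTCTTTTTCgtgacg
Rps2 (chr17:24720048-24720077, plus strand): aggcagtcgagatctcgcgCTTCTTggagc
Rps19, start 1 (chr7:24884577-24884606, plus strand): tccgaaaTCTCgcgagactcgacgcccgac
Rps19, start 2 (chr7:24884661-24884690, plus strand): ccgcacggtgagtgagggCTCTgggtcgcg
Rps19, start 3 (chr7:24884898-24884927, plus strand): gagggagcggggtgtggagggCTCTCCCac
Rpl6 (chr5:121204486-121204515, plus strand): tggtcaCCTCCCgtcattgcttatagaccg
Rpl27 (chr11:101442230-101442259, plus strand): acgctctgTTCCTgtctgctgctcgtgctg
Rpl22l1 (chr3:28805493-28805522, plus strand): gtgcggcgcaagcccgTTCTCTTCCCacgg
Rpl3l, upstream start (chr17:24727811-24727840, plus strand): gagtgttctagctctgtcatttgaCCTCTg
Rpl3l, downstream start (chr17:24732670-24732699, plus strand): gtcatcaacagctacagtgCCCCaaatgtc
The core members Rpl35, Rpl13a, Rps18, Rpl38 and Rps6 have runs of 10 to 18 pyrimidines in these windows. Rpl22l1 has a run of 10. The longest run is 6 in Rps2 and Rpl6, 5 in Rpl27, 4, 4 and 7 at the 3 annotated starts of Rps19, and 5 and 4 at the 2 annotated starts of Rpl3l, so members whose signals changed are found with and without such a run. An annotated start can differ from the start used in the heart, so the absence of a run says only that these letters are not in this window.

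Other short motifs were counted on both strands of the 300 bases. CCGGAAG, which contains the core of the site that GA-binding protein and other Ets factors recognise, was present in 17 of 32 core members (53.1%), in 37.3% of the mitochondrial ribosomal protein genes and in 20.4% of all tested genes with an entry. AAGATGG, part of the site of Yy1, was present in 5 of 32 (15.6%), against 19.4% of the mitochondrial and 8.63% of all genes. The E-box CACGTG, which Myc recognises, was present in 4 of 32 (12.5%), against 7.46% and 12.1%, and TATAA in 9 of 32 (28.1%), against 14.9% and 15.9%. CCGGAAG and AAGATGG can overlap through the letters AAG, and a match is a description of the sequence only.

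In the deposited values, the array signals of the core ribosomal protein genes stayed close to their sham level after banding. A signal is relative to the other RNA on the same array. The amount of these messages per ventricle or per cell, which can change as the heart grows, can therefore not be read. Array medians over all probe sets (2.85 to 2.99) lie under the filter of 4 and do not show the scale of brighter genes. With medians of the probe sets above the filter made equal, the median change of all genes with heart failure went from 0.01 to -0.06. In banded mice without heart failure against sham, 0 of the 37 core genes rose and 0 fell past an adjusted p of 0.05 (limma over all genes, Benjamini-Hochberg), where 10.8% of all genes tested rose and 6.53% fell. With heart failure against sham, 0 core genes rose and 5 fell, beside 20.4% and 18.9% of all genes. Between the banded groups 1 core gene, Rps6, was higher with heart failure and 0 were lower, beside 3.83% and 5.65% of all genes. The median log2 change of the core was -0.03, -0.06 and -0.03 in these comparisons, and that of all genes was 0.02, 0.01 and -0.01. Sham mice are shared by the first 2 comparisons, so the values are given side by side. Counting all 43 members, 0, 0 and 1 were higher and 3, 7 and 1 lower, the others being paralogs described below. The 37 core genes include 6 with a mean under 10, down to 4.38 for Rpl39. Differences of dim probe sets can be compressed, so the absence of a call there says little.

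These small changes were measured with narrow intervals. For the 31 core genes with a mean log2 signal of at least 12, all 31 changes lay within 0.2 of 0 in each comparison of the deposited values. The shares were 73.1%, 53.7% and 79.8% of the 737 genes at that level and 61.3%, 47.7% and 70.6% of all genes. The cut-offs of 12 and 0.2 were chosen with earlier results of these data known. The 95% intervals of these 31 genes ran from -0.22 to 0.25 without heart failure, from -0.30 to 0.23 with heart failure and from -0.26 to 0.17 between the banded groups. These intervals do not include the choice of scaling. With equal array medians Rps19, Rpl6, Rps14, Rpl27 and Rps2 lay beyond 0.2 with heart failure (-0.24, -0.23, -0.23, -0.23 and -0.21). The mean over the 31 genes was 13.92 ± 0.04 (SD, n = 5) in sham mice, 13.91 ± 0.06 (n = 7) without heart failure and 13.88 ± 0.04 (n = 7) with it, and the 3 groups overlapped (13.89 to 13.99, 13.85 to 14 and 13.82 to 13.93). This mean moved with the 18S control. In sham mice it was 13.92 to 13.99 with a high control and 13.89 and 13.90 with a low one. Without heart failure it was 13.95 to 14 and 13.85 to 13.91. All mice with heart failure had a low control.

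**Figure D1:**
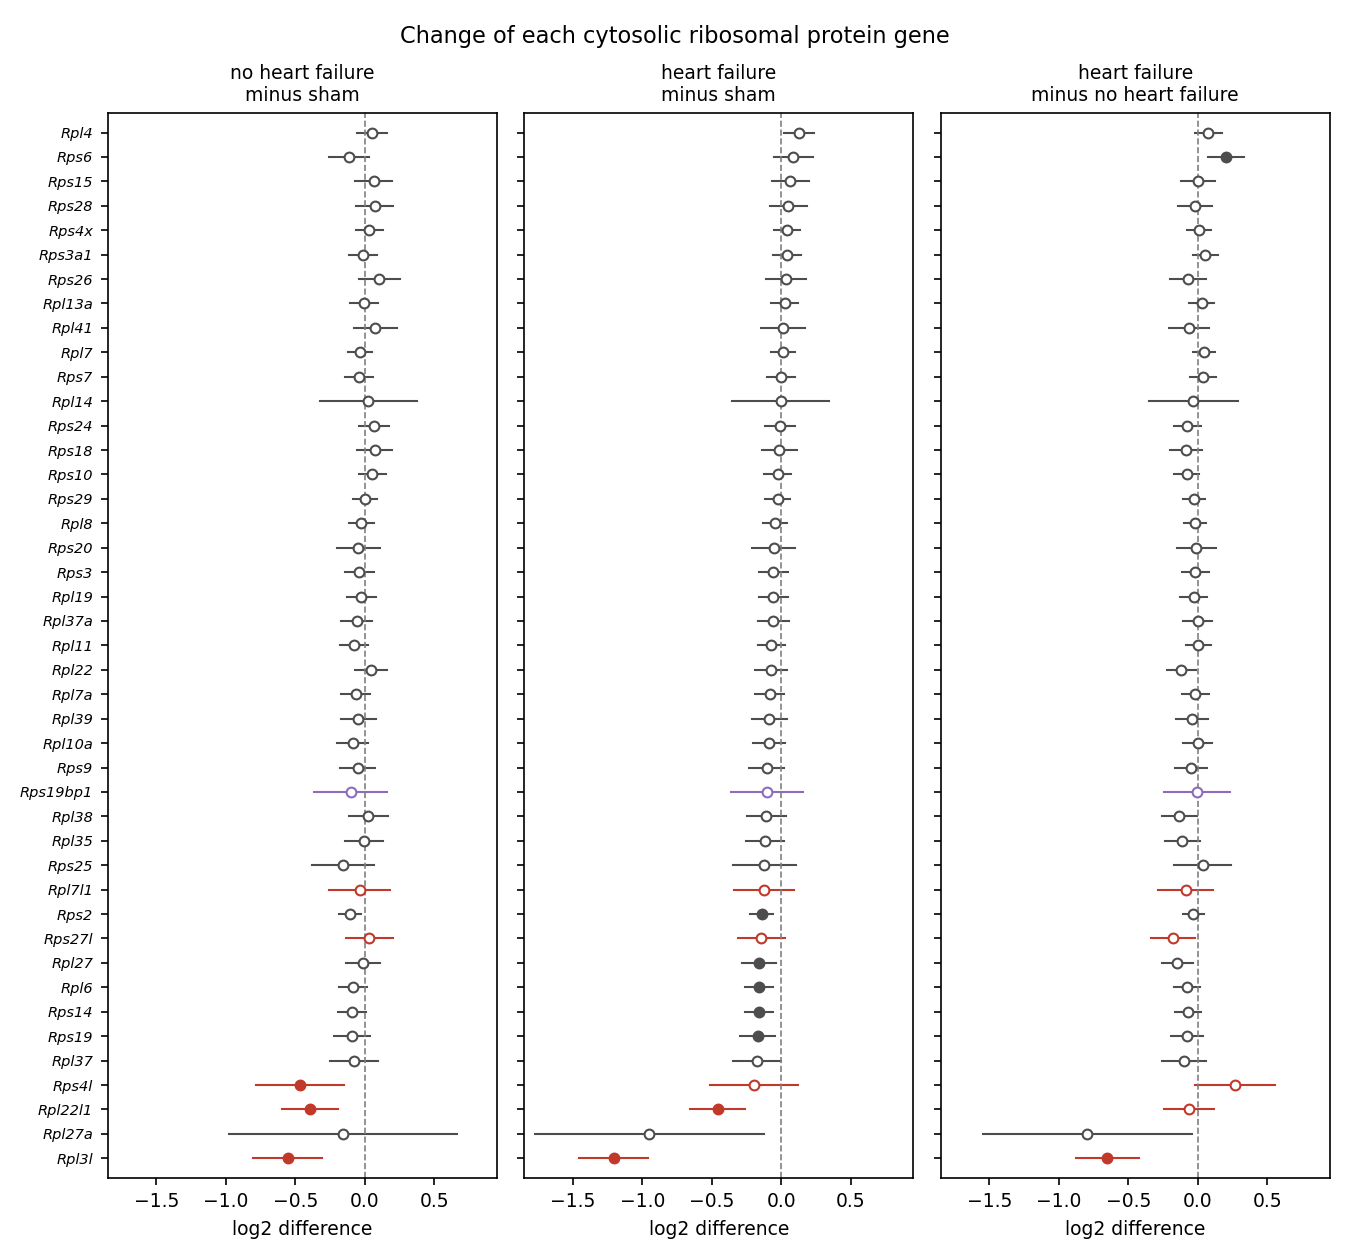
Log2 difference of each of the 43 members in the 3 comparisons with its 95% interval, ordered by the change with heart failure against sham; filled points passed an adjusted p of 0.05, and core genes are grey, paralogs red and Rps19bp1 purple. Core genes with bright probe sets lie within 0.2 of 0, and Rpl3l is lowest in both comparisons with sham, at -0.56 and -1.21.

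Rpl3l had the largest change among the members that passed the test, in every comparison. Its log2 signal was 12.39, 12.49, 12.52, 12.57 and 12.46 in the 5 sham mice. In banded mice without heart failure it ran from 11.43 to 12.25 with a median of 11.88, and with heart failure from 11.05 to 11.63 with a median of 11.27. Every banded mouse therefore lay below every sham mouse, and the banded groups overlapped through mouse 1 without heart failure (11.43), which lay below mouse 3 with heart failure (11.63).

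Rpl3l fell by 0.56 ± 0.12 (SE) on the log2 scale without heart failure, a 1.47-fold decrease (adjusted p = 0.00351). With heart failure it fell by 1.21 ± 0.12, a 2.31-fold decrease (adjusted p = 4.66e-07), and 0.801% of all genes tested had as large a fall. Against banded mice without heart failure it was 1.57-fold lower with heart failure (log2 difference -0.65 ± 0.11, adjusted p = 0.00268). The group means therefore ran from sham (highest) to heart failure (lowest), and each step passed the test.

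The fall in Rpl3l had about the same size in each subset of arrays. With heart failure against sham it was -1.24 among the arrays of the low 18S set alone, and -1.35, -1.12 and -1.18 within 3 series of animal IDs. The labels give an ID for each mouse but name no series, and the series were formed here from IDs with near numbers. Without heart failure the change in Rpl3l was -0.61 in the low and -0.50 in the high 18S set, and -0.50, -0.51 and -0.71 within the ID series, of which the first holds the same sham and banded mice without heart failure as the high 18S set. The other ID series have 1 sham mouse each. With the actin control as a covariate the change was -1.10 with heart failure (adjusted p = 0.000179) and -0.44 without (adjusted p = 0.093). Fitted on the low 18S set, Rpl3l kept its call with heart failure (adjusted p = 0.000679) but not without it (2 sham and 4 banded mice, adjusted p = 0.12) or between the banded groups (log2 difference -0.63, adjusted p = 0.0542).

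Cardiomyocyte markers moved less than Rpl3l. Of 15 cardiomyocyte markers, 0 fell without heart failure (6.53% of all genes) and 5 fell with it (33.3%, against 18.9% of all genes). These were Tnni3 (troponin I) by 0.27, Ryr2 (the calcium release channel) by 0.23, Ckm (muscle creatine kinase) by 0.19, Pln (phospholamban) by 0.17 and Myh6 (alpha myosin heavy chain) by 0.15. Mybpc3 rose by 0.30 without and 0.27 with heart failure. Ckm and Tnni3 were also lower with than without heart failure, by 0.23 and 0.18 (13.3% of the list, against 5.65% of all genes). The mean over the markers was 14.92 to 15.10 on every array, brighter than Rpl3l with its mean of 11.84. The part of cardiomyocyte RNA in the fall of Rpl3l was not tested. The partner gene Rpl3 lies only on probe sets with several symbols, so the balance between Rpl3l and Rpl3 could not be computed.

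**Figure D2:**
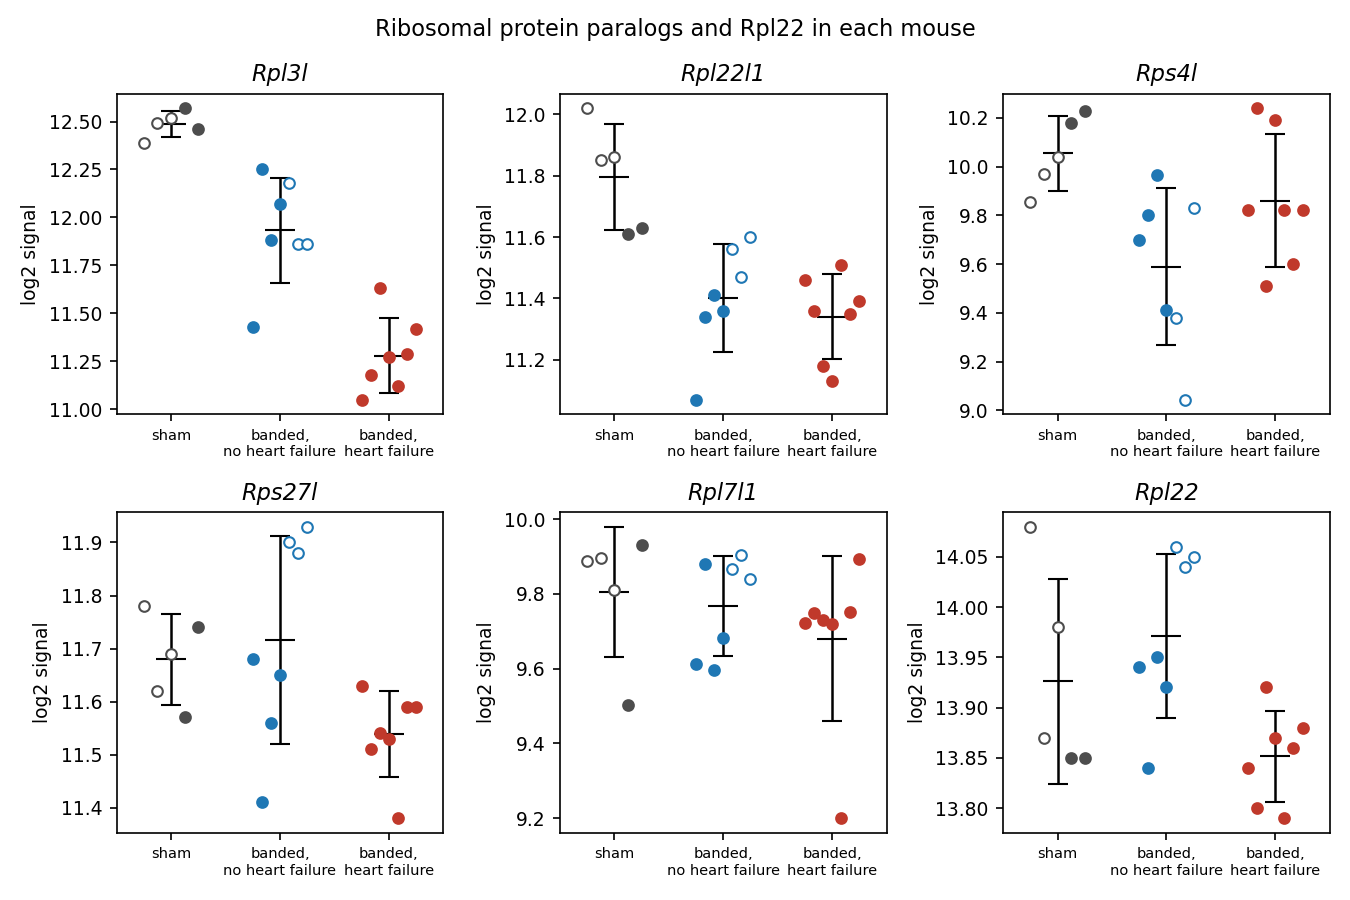
Log2 signal of the 5 paralogs above the filter and of Rpl22 in each mouse, by group; open points are arrays with a high 18S control, and bars are the group mean and SD. For Rpl3l the highest banded mouse (12.25) is below the lowest sham mouse (12.39), and all banded mice are below all sham mice for Rpl22l1.

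Rpl22l1 is the paralog of Rpl22, a large-subunit protein that binds RNA and is not needed for protein synthesis itself. Its signal was 12.02, 11.85, 11.86, 11.61 and 11.63 in sham mice. It ran from 11.07 to 11.60 (median 11.41) without heart failure and from 11.13 to 11.51 (median 11.36) with it, so all 14 banded mice lay below the 5 sham mice, by as little as 0.01 for the nearest pair. Rpl22l1 fell by 0.39 ± 0.09 (SE) on the log2 scale without heart failure (1.31-fold, adjusted p = 0.00796) and by 0.46 ± 0.09 with it (1.37-fold, adjusted p = 0.0009). The banded groups differed by -0.06 (95% interval -0.24 to 0.12, adjusted p = 0.695).

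The sham mice with a high 18S control, 1 to 3, had the 3 highest Rpl22l1 signals. Within the low 18S set the change was -0.33 without and -0.28 with heart failure, and it no longer passed (adjusted p = 0.16 and 0.0815). Within the high set it was -0.37 without heart failure. With the 18S set as a block both calls were kept (-0.35 and -0.30, adjusted p = 0.00285 and 0.0108), and with the actin covariate neither was (adjusted p = 0.153 and 0.0518).

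Since the brightest probe set of Rpl22 changed little, the balance within this pair shifted. The difference Rpl22l1 minus Rpl22 in each array averaged -2.13 after sham operation, -2.57 in banded mice without heart failure and -2.51 in those with it, and no banded mouse reached the sham range (-2.24 to -2.02; -2.87 to -2.46; -2.74 to -2.29). The shift was -0.44 and -0.38, both with p = 0.00253 in an exact two-sided permutation test, the smallest that 5 against 7 mice allow, and 0.00758 after adjustment over 9 tests. Between the banded groups it was 0.06 (exact permutation p = 0.528). A probe set has no common scale with another, so only the shift between groups can be read.

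The probe sets of Rpl22 did not move alike. The brightest (mean 13.92) and the next (12.67) changed by -0.08 and -0.07 with heart failure, whereas a dimmer one (10.15) was higher by 0.57 ± 0.10 (adjusted p = 0.000227 over all probe sets). Without heart failure the dimmer one was at 0.30 (adjusted p = 0.0507). Which transcripts each of them detects was not examined. The call of Rpl22 with heart failure depended on the setting. It was higher with mean probe sets (0.14, adjusted p = 0.0134) and lower with equal array medians (-0.14, adjusted p = 0.0459).

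Rps4l, an autosomal relative of the X-linked Rps4x of the small subunit, was lower in banded mice without heart failure. Its signal was 9.85, 9.97, 10.04, 10.18 and 10.23 in sham mice, 9.04 to 9.97 (median 9.70) without heart failure and 9.51 to 10.24 (median 9.82) with it. The groups overlap in part: 1 mouse without heart failure lay within the sham range, and mice with heart failure spanned it. Rps4l fell by 0.47 ± 0.15 without heart failure (1.38-fold, adjusted p = 0.0402), and the call was lost (adjusted p = 0.0532 to 0.0826) when any 1 of 8 mice was left out, namely mice 1, 4, 5 and 6 without heart failure and sham mice 2, 3, 4 and 5. It was lost too with the actin covariate and in the low 18S set (-0.48 and -0.49, adjusted p = 0.161 and 0.203), with no filter and in a fit of only these groups (-0.47 in both, adjusted p = 0.0801 and 0.0512). With heart failure the difference was -0.20 (adjusted p = 0.318), and between the banded groups 0.27 (95% interval -0.02 to 0.56, adjusted p = 0.227). Rps4l minus Rps4x, a pair added after the data were seen, shifted by -0.50 without heart failure (exact permutation p = 0.00253, adjusted 0.00758) and by -0.24 with it (adjusted p = 0.197).

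The other 2 paralogs passed no test except under some alternative settings. Rps27l, a small-subunit paralog induced by p53, differed by 0.03, -0.14 and -0.18 in the 3 comparisons (adjusted p = 0.816, 0.176 and 0.142). It was 11.88 to 11.93 in the 3 mice without heart failure whose 18S control was high, and 11.41 to 11.68 in the other 4. Its other probe sets, of nearly the same brightness, differed by 0.11 and 0.18 without and by -0.01 and 0.03 with heart failure, none passing. With equal array medians Rps27l was called lower with heart failure. With mouse 2 of the group without heart failure left out, the difference of Rps27l between the banded groups passed (adjusted p = 0.049). Rpl7l1, a relative of Rpl7 that acts in assembly of the large subunit, differed by -0.04, -0.12 and -0.09 (95% intervals from -0.34 to 0.18 over the 3 comparisons). The balance Rpl7l1 minus Rpl7 shifted by -0.00, -0.13 and -0.13, with adjusted exact permutation p of 0.995, 0.383 and 0.293. With mean probe sets a shift of this balance passed, as given in the section on processing.

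The 5 core genes that fell with heart failure did so by 0.14 to 0.17 on the log2 scale. They were Rps2, Rps14 and Rps19 of the small subunit, of which Rps19 is needed for maturation of 18S ribosomal RNA, and Rpl6 and Rpl27 of the large subunit. Rps2 separated the groups most clearly: it was 14.08, 14.08, 14.07, 14.04 and 14.01 in sham mice, 13.91 to 14 (median 13.95) without heart failure and 13.86 to 13.95 (median 13.92) with it. All banded mice were below all sham mice. Rps2 fell by 0.14 ± 0.04 with heart failure (adjusted p = 0.008), and without heart failure the difference was -0.11 (adjusted p = 0.0638), which passed with the 18S set as a block (-0.10, adjusted p = 0.0481).

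Rps19 was 13.16, 13.10, 13.21, 13.01 and 13.07 in sham mice, and with heart failure 12.80 to 13.04 (median 12.94). The highest mouse with heart failure lay above the lowest sham mouse. Rps19 fell by 0.17 ± 0.06 (adjusted p = 0.0327), Rpl6 by 0.16 ± 0.05 (adjusted p = 0.0148), Rps14 by 0.16 ± 0.05 (adjusted p = 0.0136) and Rpl27 by 0.16 ± 0.06 (adjusted p = 0.0374). Rps14 was 14.15 to 14.31 in sham mice and 14.01 to 14.15 with heart failure, so the groups met at a single value.

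These 5 falls were smaller within the low 18S set and with the 18S set as a block, to differing extents. Rpl27 was 12.89 to 12.95 in the 3 sham mice with a high control and 12.76 and 12.79 in the other 2, while mice with heart failure ran from 12.66 to 12.80. Within the low 18S set the differences of Rps19, Rpl6, Rps14, Rpl27 and Rps2 were -0.10, -0.13, -0.09, -0.07 and -0.11. None passed there, with 2 sham mice left against 7 with heart failure. With the 18S set as a block Rps2 alone of the 5 kept its call (adjusted p = 0.0318), and with the actin covariate none did. After quantile normalisation Rps2 (-0.08), Rps14 (-0.10) and Rpl27 (-0.15) did not pass (adjusted p = 0.101, 0.0906 and 0.0582), and with mean probe sets Rpl27 did not (adjusted p = 0.0557). Rps2 and Rps14 have no probe set above the filter outside the _x_at and _s_at kinds, which can bind copies of a sequence. With the ID series as a block, Rps19 and Rpl27 did not pass (adjusted p = 0.0598 and 0.0578). The call of Rpl27 was also lost when any 1 of 8 mice was left out (sham mice 1 to 3 and mice 2 to 6 with heart failure, adjusted p = 0.0538 to 0.0977), and that of Rps19 when any 1 of 6 was (sham mice 1 to 3 and mice 3, 5 and 6 with heart failure, adjusted p = 0.05 to 0.0898). With equal array medians, a rescaling that turned the split of all genes with heart failure from 2193 higher and 2027 lower into 1689 higher and 2762 lower, 19 of 43 members were called lower. Quantile normalisation gave 1793 higher and 2587 lower. Without heart failure the split of all genes went from 1164 higher and 701 lower to 862 and 1050 with equal medians and to 902 and 926 with quantile normalisation.

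Rps6, the small-subunit protein that S6 kinase phosphorylates downstream of mTOR, was the only member that its brightest probe set called higher in any of the 3 comparisons. Its signal was 8.587, 8.535, 8.572, 8.465 and 8.545 in sham mice, 8.145 to 8.599 (median 8.462) without heart failure and 8.517 to 8.704 (median 8.668) with it. The banded groups overlapped. Rps6 was higher with heart failure than without by 0.20 ± 0.06 on the log2 scale, a 1.15-fold difference (adjusted p = 0.0486), and differed from sham by 0.09 with and -0.11 without heart failure (adjusted p = 0.328 and 0.266). The 3 lowest mice without heart failure (8.145, 8.312 and 8.432) were those with a high 18S control, and within the low set the difference was 0.10 (adjusted p = 0.344). The call was lost (adjusted p = 0.0534 to 0.102) when any 1 of 13 mice was left out: mice 4 to 7 without heart failure, mice 1 to 5 with it, and sham mice 1, 2, 3 and 5.

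Of the other 5 core genes under a mean of 10, Rpl37, Rpl27a, Rpl14, Rps25 and Rpl39, none passed. Rpl27a had the widest spread of all members. It was 7.66, 7.42, 7.59, 6.06 and 7.15 in sham mice, 6.06 to 8.25 (median 6.52) without heart failure and 5.82 to 6.57 (median 6.20) with it. The 6 arrays with a high 18S control held the 6 highest values (7.42 to 8.25), and the low set ran from 5.82 to 7.15. Its difference of -0.95 ± 0.39 with heart failure did not pass (adjusted p = 0.0623) and was -0.38 within the low 18S set. It passed with quantile normalisation, with equal medians, in a fit of only these 2 groups, and without mouse 6 or mouse 7 of the group without heart failure or without sham mouse 4. Rpl37 passed under the first 3 of these settings and Rpl39 with quantile normalisation. Rps29, the brightest member, was 15.67 to 15.72 in sham mice and 15.58 to 15.72 with heart failure, and Rpl13a, Rps18 and Rpl4 differed from sham with heart failure by 0.02, -0.01 and 0.13 (adjusted p = 0.726, 0.878 and 0.0522). Rpl4 was called higher with no filter, the stricter filter, mean probe sets, quantile normalisation and the trended robust fit, and without mouse 3 of either banded group. Dimmer probe sets of Rpl7 (mean 13.28) and Rpl13a (mean 10.21) were higher with heart failure by 0.17 and 0.16 (adjusted p = 0.0114 and 0.0445 over all probe sets), while the brightest ones differed by 0.01 and 0.02.

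Of the core proteins whose symbols fall outside the rule, 4 could be read, and 1 of them passed. Rplp0 and Rplp2 of the stalk, where elongation factors bind, differed from sham with heart failure by -0.03 and -0.02, and Rpsa of the small subunit by 0.08. Fau, which encodes Rps30 fused to a ubiquitin-like protein, fell by 0.27 ± 0.07 with heart failure (adjusted p = 0.00724) and differed by -0.12 without (adjusted p = 0.254). Rplp1 and Rack1 had no value in the fit. Among 95 probe sets above the filter that list several symbols with at least 1 ribosomal protein, 1, 3 and 0 were called higher and 2, 15 and 1 lower in the 3 comparisons, with medians of -0.04, -0.08 and -0.03. These calls were adjusted over all probe sets. Of all genes tested, 10.8%, 20.4% and 3.83% were called higher and 6.53%, 18.9% and 5.65% lower.

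Genes for the mitochondrial ribosome, which makes the membrane subunits of the respiratory chain, were read beside the cytosolic ones. Of 76 genes tested, 18 fell (23.7%, against 6.53% of all genes) and 0 rose (10.8% of all genes) without heart failure. With it 53 fell (69.7%, against 18.9%) and 1 rose (1.32%, against 20.4%). In mice with heart failure against banded mice without it, 21 were lower (27.6%, against 5.65%) and 0 higher (3.83% of all genes). The median changes were -0.11, -0.27 and -0.14. The largest fall with heart failure among them was that of Mrpl14, by 0.94 ± 0.10 (adjusted p = 9.73e-07).

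The mean over the 76 mitochondrial genes was 10.90 to 11.04 in sham mice, 10.82 to 10.90 without and 10.61 to 10.80 with heart failure, and the banded groups did not overlap. Among low 18S arrays the median of the mitochondrial genes was -0.11 without and -0.24 with heart failure, while that of the cytosolic core was -0.02 in both. The difference between the lists is described here and carries no test of its own.

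**Figure D3:**
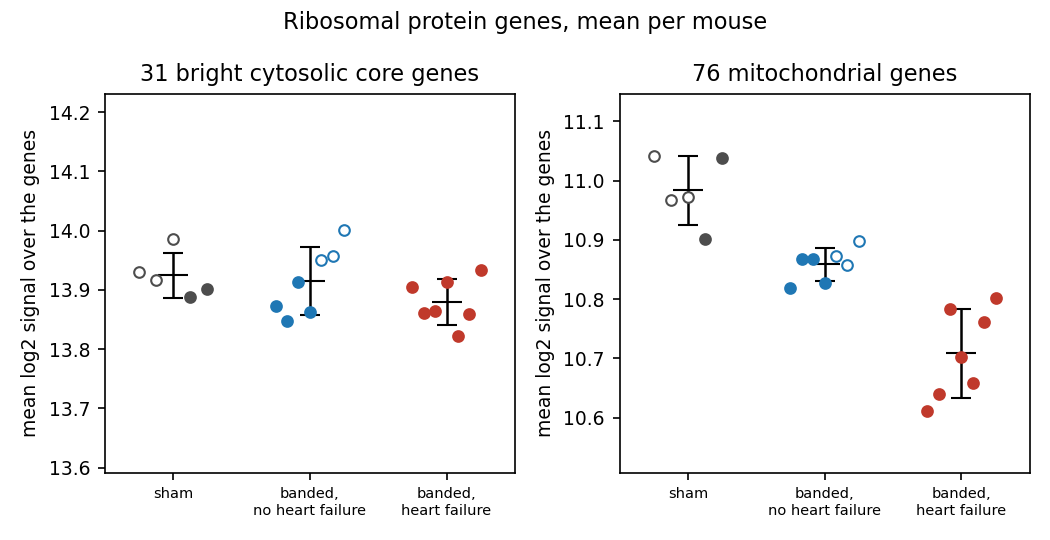
Mean log2 signal in each mouse over the 31 core cytosolic genes with a mean of at least 12 (left) and the 76 mitochondrial ribosomal protein genes (right), on axes of equal height; open points have a high 18S control, and bars are the group mean and SD. The cytosolic means overlap between 13.82 and 14, and the mitochondrial means step down from 10.98 in sham mice to 10.86 and 10.71.

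Factors that build ribosomes rose about as often as genes in general. Of 55 assembly factors tested, 5 rose (9.09%, against 10.8% of all genes) and 0 fell (6.53% of all genes) without heart failure. With heart failure 11 rose (20%, against 20.4%) and 3 fell (5.45%, against 18.9%), and the medians were 0.06 and 0.08. Pes1 and Bop1, which work together in maturation of the large subunit, rose by 0.39 ± 0.07 and 0.38 ± 0.08 without heart failure (adjusted p = 0.00147 and 0.00302) and by 0.48 and 0.45 with it. The third largest rise without heart failure was that of Nhp2, of the complex that guides pseudouridylation, by 0.23, and with heart failure the largest was that of Nop58, of the complex that guides ribose methylation, by 0.53 ± 0.16 (adjusted p = 0.0114). Ncl (nucleolin) rose by 0.22 and 0.32 (adjusted p = 0.0473 and 0.00227), and Npm1 (nucleophosmin) differed by 0.05 and 0.07 with adjusted p of 0.698 and 0.514. Between the banded groups 1 factor was called, Nol6, lower with heart failure by 0.27. This is 1.82% of the list lower and 0% higher, against 5.65% and 3.83% of all genes.

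Genes of RNA polymerase I, which transcribes ribosomal RNA, were also read. Of 12 genes tested, 0 changed without heart failure, where 10.8% of all genes rose and 6.53% fell. With it 2 fell (16.7%, against 18.9% of all genes) and 0 rose (20.4% of all genes). Between the banded groups 0 differed, where 3.83% of all genes were higher and 5.65% lower. Polr1a, the largest subunit, fell by 0.40 ± 0.09 (adjusted p = 0.00147), and Rrn3, which brings the polymerase to the promoter, fell by 0.28 ± 0.08 (adjusted p = 0.0118). Their medians over the list were -0.00 and -0.07.

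Initiation and elongation factors changed in both directions. Of 34 initiation factors, 4 rose (11.8%, against 10.8% of all genes) and 1 fell (2.94%, against 6.53%) without heart failure. With heart failure 11 rose (32.4%, against 20.4%) and 5 fell (14.7%, against 18.9%), which carries no test of the list. Eif3a, the largest subunit of eIF3, rose by 0.35 ± 0.05 and 0.43 ± 0.05 (adjusted p = 0.000179 and 3.82e-06), Eif5 rose by 0.26 and 0.41, and Eif1a rose by 0.47 with heart failure and was higher by 0.31 than without it. Eif4g3 rose by 0.45 with heart failure and Eif3m fell by 0.22 without and 0.29 with it. Eif2b4 was lower with heart failure than without it by 0.25.

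Of 11 elongation and termination genes, 2 rose and 0 fell without heart failure, 3 rose and 1 fell with it, and 1 was higher and 1 lower between the banded groups. These are 18.2% and 27.3% higher, beside 10.8% and 20.4% of all genes, and 0% and 9.09% lower, beside 6.53% and 18.9%. Between the banded groups the share was 9.09% in each direction, beside 3.83% higher and 5.65% lower of all genes. The 2 forms of elongation factor 1 alpha are a fetal and widely expressed one, Eef1a1, and an adult muscle and nerve one, Eef1a2. Eef1a1 averaged 14.11 (sham), 14.26 (no heart failure) and 14.55 (heart failure); it rose by 0.44 ± 0.09 with heart failure (adjusted p = 0.000642) and was higher than without it by 0.29 (adjusted p = 0.0294). Eef1a2 averaged 14.23, 14.49 and 14.33 in the same order; it rose by 0.26 ± 0.06 without heart failure (adjusted p = 0.00747) and differed from sham by 0.11 with it (adjusted p = 0.185). Eef2 rose by 0.22 and 0.16, Eef1d fell by 0.26 with heart failure, Etf1 rose by 0.20, and Tpt1, a TOP message itself, differed by 0.03 and 0.01 (adjusted p = 0.644 and 0.836).

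Among 22 genes of the mTOR pathway and of TOP regulation, 5 rose and 1 fell without heart failure, 3 rose and 3 fell with it, and 0 differed between the banded groups. The shares without heart failure were 22.7% higher and 4.55% lower, beside 10.8% and 6.53% of all genes. With it they were 13.6% in each direction, beside 20.4% higher and 18.9% lower. Between the banded groups 3.83% of all genes were higher and 5.65% lower. Myc, a transcription factor that drives ribosome production, rose 2.27-fold without and 2.99-fold with heart failure (log2 1.19 ± 0.26 and 1.58 ± 0.26, adjusted p = 0.00391 and 0.000101), from a dim 5.08 in sham mice with the lowest array at 4.12. Tia1, a protein that binds TOP messages and represses their translation, fell by 0.56 ± 0.18 with heart failure (adjusted p = 0.0194). Eif4ebp2, a binding protein that blocks the cap factor eIF4E, rose by 0.48 without heart failure, and Rps6kb2, an S6 kinase, rose by 0.37 without and 0.41 with it. The fibroblast markers rose in the same comparisons, as did 8 of 10 cell division genes with heart failure (80%, against 20.4% of all genes). The level over the cell division list was 4.69 to 5.08 after sham operation and 4.68 to 6.36 with heart failure. The part of fibroblasts and dividing cells in the changes was not tested. With equal array medians 7 rather than 16 genes of these lists rose without heart failure and 17 rather than 28 with it, while 4 rather than 2 and 25 rather than 14 fell.

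**Figure D4:**
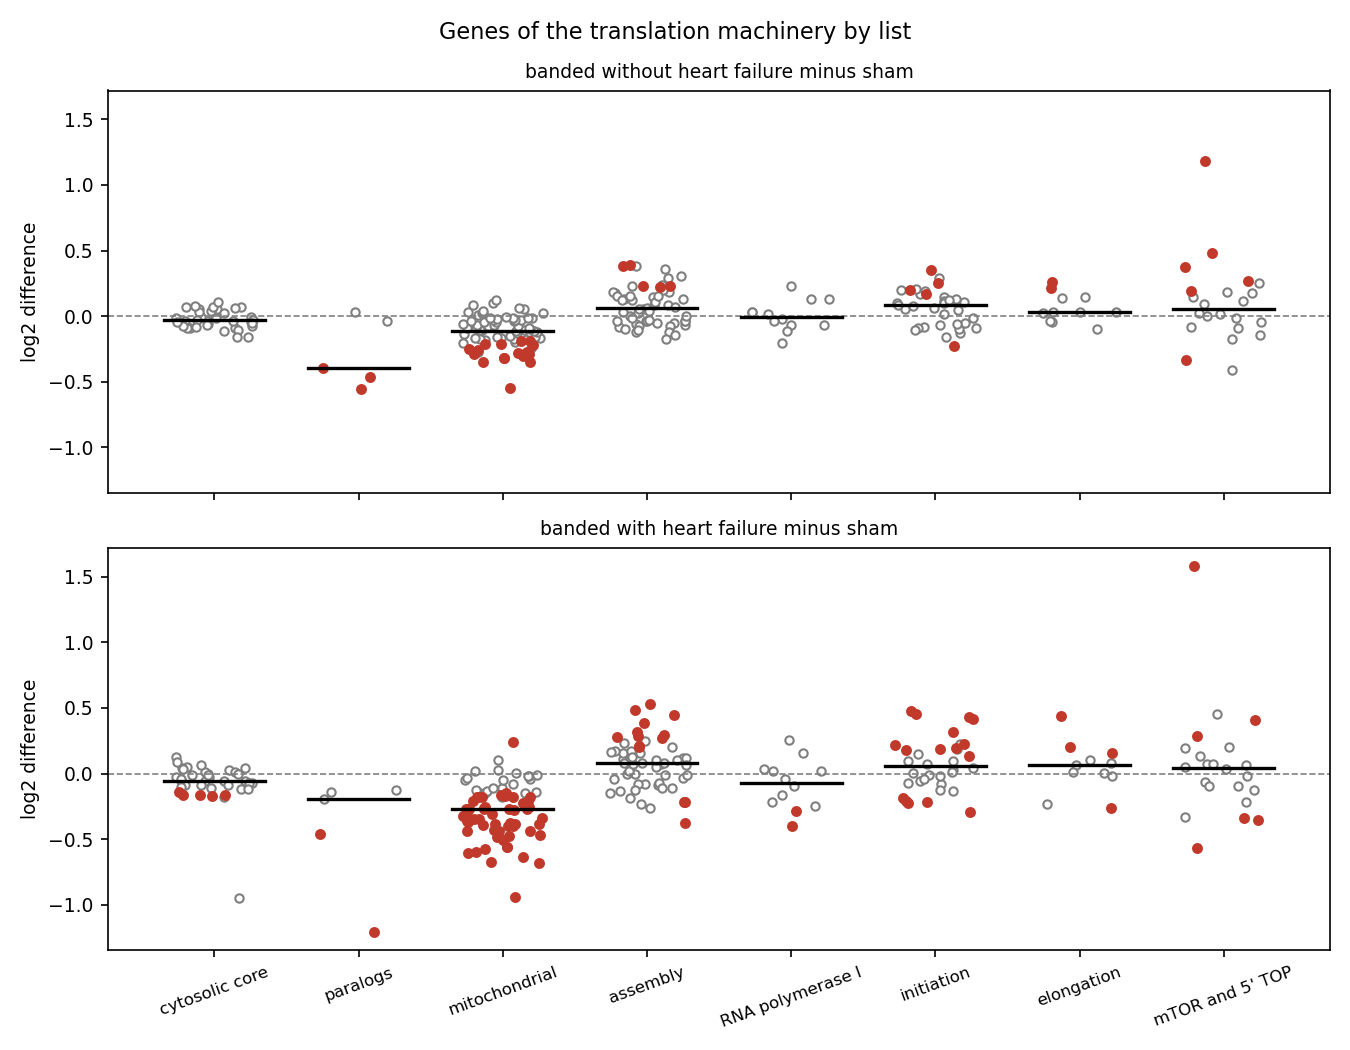
Log2 difference from sham of every tested gene in 8 lists, without heart failure (top) and with heart failure (bottom); red points passed an adjusted p of 0.05, open points did not, and bars are medians. The cytosolic core lies at medians of -0.03 and -0.06, the mitochondrial list at -0.11 and -0.27, and Myc is the highest point, at 1.19 and 1.58.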

How the data were processed

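The authors deposited log2 values for 45101 probe sets on 19 Affymetrix arrays, 1 per mouse, and the submitters' processing notes name GCRMA, with neither version nor genome build given in the sources used here. This method draws dim probe sets to a common floor, which compresses their differences. Array medians over all probe sets were 2.85 to 2.99. Symbols came from the platform annotation in GEO (34958 with 1 symbol, 932 with several, 9211 not listed). Each gene was represented by its probe set with the highest mean. Groups were compared in 1 limma fit (limma 3.58.1 in R 4.3.3, with lmFit, eBayes and no term besides group, tested on simulated data) over 10733 genes with Benjamini-Hochberg adjustment at 0.05. For paralog balances the test was an exact permutation of mice, two-sided (scipy 1.17.1). Intervals are 95% intervals of the fit. No depth applies to arrays, and their number limits the precision. Members, lists and cut-offs of 12, 10 and 0.2 were chosen with earlier results of these data known.

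Named were a fixed choice of ribosomal, paralog and translation genes, the members past the threshold in each comparison (up to 8 in each direction), the members with the highest and lowest level or nearest the filter, the 3 largest changes past the threshold of each list, and marker genes where at most 5 passed. Rpl27a, Rpl4, Rpl35, Rpl38, Rps4x, the other dim core members, the cardiomyocyte markers, Mrpl14 and Eif3m with heart failure were named after their values were seen. Groups came from the outcome label; mice were numbered in accession order, so numbers pair nothing. No label names separate batches. Alternatives covered the filter, the probe set, the scaling, the 18S and actin controls, the animal ID series, the mice used and the limma variant. Python 3.11.15, pandas 2.3.3 and matplotlib 3.10.9 were used.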

Additional observations from a re-analysis of the deposited data

Results flagged for a closer look

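In 51 groups of 5 or 7 values (16 named members and the mean of the 31 bright core members, in each of the 3 groups of mice), 3 had a lowest value far from the rest, and chance flags about 1 in 20 such groups. Rpl6 was 13.02 in sham mouse 4, and the next sham mouse was at 13.13. Rpl7l1 was 9.503 in the same mouse, with the next at 9.81. Rpl7l1 was also 9.2 in mouse 5 with heart failure, with the next at 9.72. Without sham mouse 4, Rpl6 kept its call with heart failure, and Rpl7l1 passed in no comparison with either mouse left out.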

How the results depend on the processing

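Over the 16 members followed by name, 1476 values under alternatives were compared. Of these, 1395 kept their side of the threshold, 72 lost a call, 9 gained one and 0 turned a call to the opposite direction. Values without a call could change sign. Rpl22 with heart failure was -0.08 with its brightest probe set and 0.14 with mean probe sets (adjusted p = 0.0134). Rps18 without heart failure was 0.07, and -0.07 in the low 18S set. Calls lower without heart failure went from 3 to 0 with the actin covariate and in the low 18S set. Calls lower with heart failure went from 7 to 19 with equal array medians, 3 with the 18S block and 1 with the actin covariate or in the low 18S set, where Rpl3l remained; calls higher went from 0 to 1 with no filter, the stricter filter, no _x_at or _s_at probe sets, quantile normalisation or the trended fit, and to 2 with mean probe sets. Between the banded groups the call higher was lost (0) with no filter, quantile normalisation, equal medians, the 18S block, the low 18S set and a fit of only the groups compared, and the call lower (0) in the low 18S set. Member medians moved to 0.046 without heart failure (actin) and, with it, to -0.14 (equal medians), -0.0075 (18S block) and 0.0083 (actin). Over the lists of translation genes, calls higher and lower without heart failure were 9 and 4 after quantile normalisation, and 7 and 4 with equal medians; calls lower were 4 with the 18S block and 1 with mean probe sets, no _x_at or _s_at probe sets or the actin covariate. With heart failure they were 17 higher (equal medians), and 22, 25, 8 and 3 lower (quantile, equal medians, 18S block, actin). Between the banded groups 1 was higher with no filter or mean probe sets, and 1 was lower with mean probe sets and 6 with equal medians, the ID series block or the actin covariate. In the low 18S set the balance Rpl22l1 minus Rpl22 shifted by -0.39 and -0.28 and Rps4l minus Rps4x by -0.49 without calls (adjusted exact permutation p = 0.375 for each). With 2 sham mice against 4 mice without or 7 with heart failure, this test cannot reach 0.05. No call was therefore possible there, and its absence says nothing about the balances. Rpl7l1 minus Rpl7 passed with mean probe sets (-0.19, adjusted exact permutation p = 0.0284). The cause was not tested, beyond the fewer mice of the low set. Leaving out each mouse gave 2 to 3, 5 to 8 and 1 to 2 calls lower, and 0, 0 to 1 and 0 to 1 higher. Medians then ran from -0.048 to -0.018, -0.095 to -0.048 and -0.049 to -0.02. Balances ran from -0.46 to -0.39, -0.42 to -0.34 and 0.0052 to 0.093 for Rpl22l1, from -0.56 to -0.41, -0.29 to -0.18 and 0.17 to 0.32 for Rps4l, and from -0.069 to 0.041, -0.2 to -0.051 and -0.16 to -0.049 for Rpl7l1. No paired analysis was possible because mouse numbers carry no pairing.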

Other observations

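Core members varied together from mouse to mouse, beyond their groups. After group means were taken out, the median pairwise correlation over the 19 arrays was 0.39 among the 31 core genes with a mean of at least 12, 0.27 among 76 mitochondrial ribosomal protein genes and 0.01 among all 10733 genes. Each of the 31 was correlated with the mean of the others at -0.28 (Rpl4) to 0.95 (Rps19). Rpl3l stood at -0.01 and Rps6 at -0.29. The arrays share the 18S and actin differences described above, and probe sets of this family can share sequence, so these values describe the arrays and carry no test.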
